A study of Caenorhabditis elegans with 8 samples.

Results

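The genes described here code for a chain of folding helpers in the worm Caenorhabditis elegans: the subunits of the cytosolic chaperonin (cct), the subunits of prefoldin (pfd) and the DnaJ-domain or J proteins (dnj). They were chosen by name, as every gene of the deposited table whose symbol starts with cct-, pfd- or dnj-, which gave 8 cct, 6 pfd and 29 dnj genes, or 43 of 17521 genes. No gene with such a symbol in the annotation was missing from the table, so none was lost to the filter on low counts. RNA was sequenced from whole worms of the wild-type N2 strain, 4 samples treated with 50 μM atracurium, a drug that blocks acetylcholine receptors at the neuromuscular junction, and 4 samples given the water vehicle. Each sample held about 1000 worms moved at larval stage 4 to treatment plates and collected after 24 h, as day 1 adults, and the plates of both groups also held 5-fluorouracil, so the worms given water were exposed to that compound too. The question addressed is whether these genes differed in RNA level between worms given atracurium and worms given water.

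The chaperonin is a double ring of related subunits, each ring holding every subunit once, and it closes around newly made proteins while they fold. Actin and tubulin are its best known clients, and prefoldin, a complex shaped like a jellyfish with its arms down, carries them to the ring while they are still unfolded. J proteins act on another machine: each brings a client to an Hsp70 chaperone and triggers ATP hydrolysis there, and different J proteins do this in the cytosol, the endoplasmic reticulum, the mitochondria, on clathrin-coated and synaptic vesicles and at the ribosome.

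Values are log2 CPM as deposited, that is log2 of read counts scaled to the size of each library, and fold changes are log2 differences, atracurium minus water vehicle, tested with limma-trend. The samples held 30836643 to 35947045 reads with atracurium and 27922986 to 60015200 with water, and a gene of these families had between 206 reads (dnj-24) and 43500 reads (cct-5) in a sample. Counting error was therefore small in the genes with many reads but larger in those with few, such as dnj-24 and dnj-21 (from 219 reads). Atracurium replicate 2 stood apart from the other samples on the first principal component and atracurium replicate 4 on the second, and values without replicate 2 are given where leaving it out moved a result most. The paper's methods speak of 4 samples grown, with about 1000 worms in each. Neither they nor the labels say outright whether the samples of a group came from separate cultures, and p-values measure only the spread between these samples. Markers of intestine, muscle, hypodermis, neurons, oocytes and sperm were all detected, as whole worms should give. The summed level of 36 sperm genes was 85.5 to 180 CPM with atracurium and 187 to 230 CPM with water, while the 9 oocyte and eggshell genes summed to 12674 to 13815 CPM with atracurium and 11577 to 12533 CPM with water. The 3 body wall muscle genes summed to 1775 to 1956 CPM with atracurium and 1467 to 1684 CPM with water, again with no overlap. These muscle genes are long (median 6104 nt of exon). Their median fold change of 0.24 was 0.12 after removal of the trend with gene length, described below. In whole worms, fewer cells of a type and less RNA per cell cannot be told apart.

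None of the 43 genes passed an adjusted p of 0.05, against 31 of 17521 genes (0.177%), and the lowest adjusted p among them was 0.361, for pfd-6. With limma-voom on the recovered reads the count was also 0. At an unadjusted p below 0.05, 4 members were lower with atracurium (pfd-4, pfd-5, pfd-6 and dnj-26), or 9.30% of the members against 6.63% of all genes, and 0 were higher, against 4.91% of all genes. The fitted difference was below 0 in 21 of the 43 (48.8%), against 52.3% of all genes. The 3 families nevertheless differed in how their members lay. The chaperonin genes sat close to 0, all 6 prefoldin genes had fitted differences below 0, and the J protein genes were spread evenly on both sides.

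**Figure D1:**
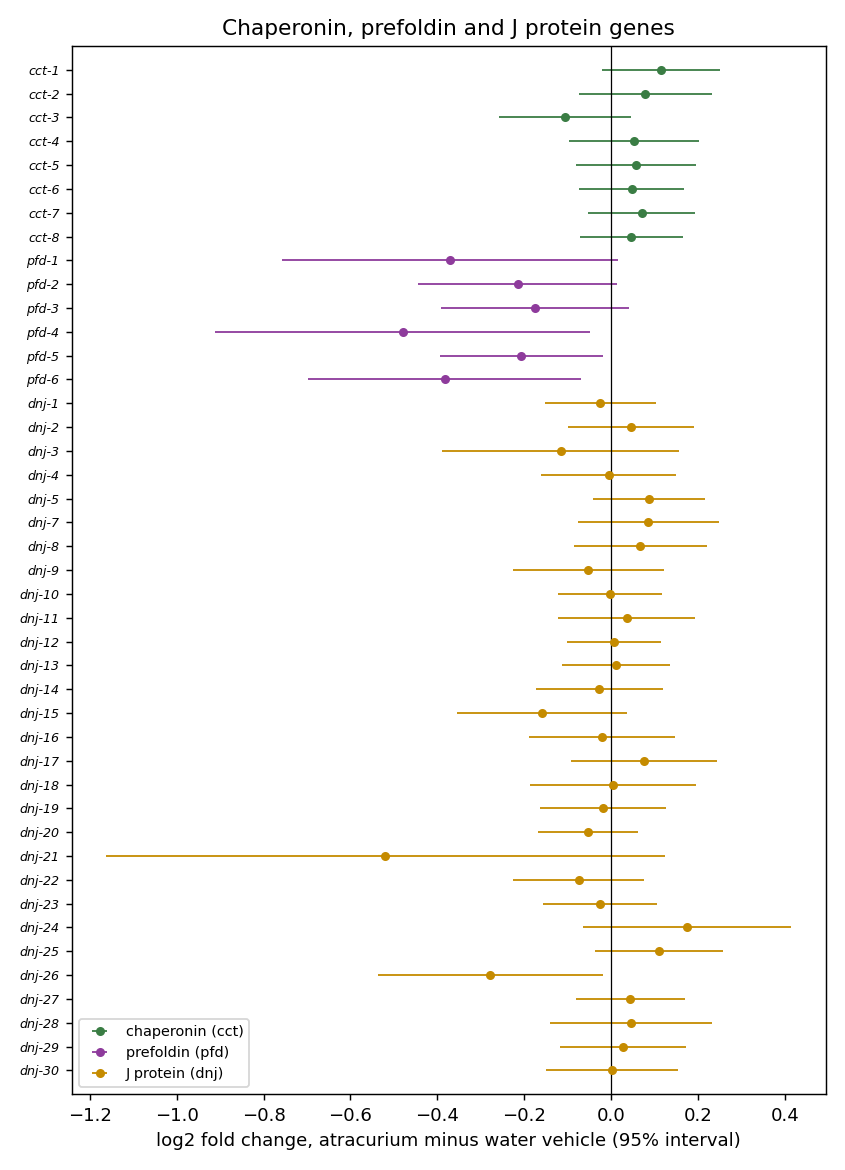
Log2 fold change (atracurium minus water vehicle, x axis) of each of the 43 genes with its 95% interval from limma-trend, 4 samples a group. Chaperonin genes lie between −0.11 and 0.11, prefoldin genes between −0.48 and −0.18, and only pfd-4, pfd-5, pfd-6 and dnj-26 have intervals that leave out 0.

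The chaperonin genes had nearly the same RNA level in both groups. Their fold changes ran between −0.11 (cct-3) and 0.11 (cct-1) with a median of 0.05, 7 were above 0 and 1 below, none of the 8 had an unadjusted p below 0.05, and in all 8 the groups overlapped. Without atracurium replicate 2 the median was 0.03, with cct-1 at 0.06, cct-2 at 0.02, cct-3 at −0.05 and cct-5 at 0.01. With the deposited scaling, the 95% intervals of the 8 subunits together reached no lower than 0.835-fold and no higher than 1.19-fold. Larger changes than these lie outside the intervals of that scaling. The median standard error was 0.063, against 0.16 over all genes. The size and direction of such small differences depended on scaling. With samples shifted to a common median, 7 subunits were above 0 and 1 below, the median was 0.12 and cct-1 was at 0.18. After quantile normalization 5 subunits were above 0 and 3 below, and after removal of the trend with gene length, described below, 6 were above and 2 below.

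The subunit with the largest positive difference was cct-1 (WBGene00000377; chromosome II, 8185443 to 8187601 in WBcel235). Its log2 CPM was 9.003, 9.15, 8.93 and 8.93 in atracurium replicates 1 to 4, against 8.97, 8.82, 8.89 and 8.88 in the water vehicle replicates. Atracurium replicate 2 was the highest sample and water replicate 2 the lowest, and the other 6 samples interleaved. The fold change was 0.11 (SE 0.063, 95% interval −0.02 to 0.25, adjusted p = 0.483). For cct-2 (WBGene00000378; chromosome II, 8927741 to 8929815), the next in size, the samples stood at 8.81, 9.001, 8.74 and 8.78 with atracurium and at 8.84, 8.62, 8.77 and 8.78 with water. Its extremes were the same libraries, and the fold change was 0.08 (adjusted p = 0.661).

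The one subunit below 0 was cct-3 (WBGene00018782; chromosome II, 2233540 to 2243539), which had the longest exons of the family, 2602 nt. It stood at 8.38, 8.14, 8.24 and 8.46 with atracurium and 8.46, 8.32, 8.43 and 8.44 with water, a fold change of −0.11 (SE 0.070, adjusted p = 0.553). Here atracurium replicates 2 and 3 were below every water sample, while replicates 1 and 4 lay within the water range or at its top. After the length trend was removed its fold change was −0.17 (limma-trend, unadjusted p = 0.0288, adjusted p = 0.487). All other chaperonin genes had fold changes of 0.05 to 0.11.

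Although one copy of each subunit goes into a ring, their RNA levels per length were unequal. In reads per kb of exon scaled to library size (RPKM, averaged over the 8 samples), cct-5 (WBGene00000380; chromosome III, 4499188 to 4508114) was highest at 386 and cct-3 lowest at 127, a ratio of 3.05. The length used was that of all annotated exons joined. It was greatest in cct-3, cct-8 and cct-7 (2602, 2358 and 2259 nt), so their lower levels depend in part on it. The median of the 8 was 228, against 4.50 over all genes. The order was stable over samples: cct-5 ranked first, cct-1 second and cct-7 sixth in all 8 samples, cct-2, cct-4 and cct-6 exchanged ranks 3 to 5, and cct-3 and cct-8 exchanged ranks 7 and 8. Neighbours within those last sets did not differ beyond the spread between samples. The log2 CPM of cct-5 was 9.54, 9.72, 9.49 and 9.53 with atracurium, against 9.60, 9.46, 9.51 and 9.47 with water, a fold change of 0.06 (adjusted p = 0.733). The genes are spread over the genome, with cct-1 to cct-4 on chromosome II, cct-5 and cct-6 on III, cct-8 on IV and cct-7 on V.

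**Figure D2:**
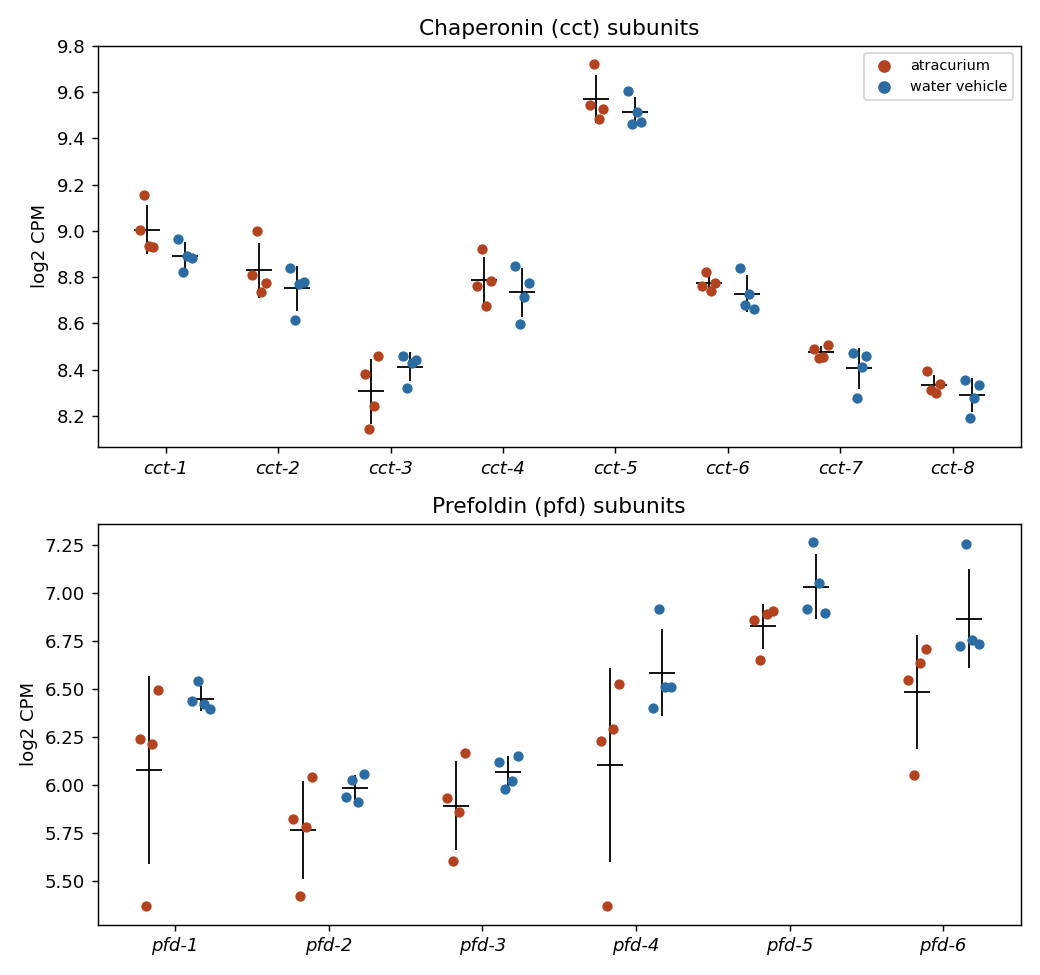
Log2 CPM of each chaperonin subunit (top) and prefoldin subunit (bottom) in the 4 atracurium and 4 water vehicle samples, with the mean and SD of each group. Chaperonin values overlap in every subunit, while in each prefoldin subunit atracurium replicate 2 is the lowest of the 8 samples.

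All 6 prefoldin genes had lower fitted levels with atracurium, by 0.18 to 0.48 on the log2 scale (median fold change −0.29). Leaving out the 1 library atracurium replicate 2 brought this median to −0.14, with all 6 still below 0. The median was −0.38 without atracurium replicate 4 and −0.20 without both of these replicates, again with all 6 below 0. None passed the adjusted threshold, and 3 of the 6 were lower at an unadjusted p below 0.05, against 6.63% of all genes. Among all 5922 genes under 1000 nt of exon, where all 6 belong, 766 were lower at that threshold. In pfd-6 alone the groups did not overlap, which makes 1 of the 43 members (2.33%) against 7.16% of all genes. The intervals of the 6 reached down to 0.532-fold and up to 1.03-fold. The 6 kept this direction with a common median and with quantile normalization. With the length trend removed, 4 were below 0 and 2 above, and the median was −0.05.

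The most distant was pfd-4 (WBGene00007107; chromosome IV, 11315207 to 11315877), a subunit of the beta class. Its log2 CPM was 6.23, 5.37, 6.29 and 6.53 with atracurium and 6.40, 6.91, 6.51 and 6.51 with water. Atracurium replicate 2 was by far the lowest sample and water replicate 2 the highest, and atracurium replicate 4 lay above 3 of the 4 water samples. The fold change was −0.48 (SE 0.20, 95% interval −0.91 to −0.05, unadjusted p = 0.0320, adjusted p = 0.397). It was −0.23 without atracurium replicate 2, −0.37 without water replicate 2 (unadjusted p then 0.107) and −0.20 after removal of the length trend.

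The gene whose groups did not overlap was pfd-6 (WBGene00009004; chromosome I, 7282964 to 7283762), also of the beta class, at 6.54, 6.05, 6.63 and 6.70 with atracurium, against 6.72, 7.25, 6.76 and 6.73 with water. The gap was narrow, between 6.70 in atracurium replicate 4 and 6.72 in water replicate 1, and the widest departures were again the second replicates of both groups. The means were 6.48 ± 0.30 with atracurium and 6.87 ± 0.26 with water (SD, n = 4 each), a fold change of −0.38 (SE 0.14, unadjusted p = 0.0207, adjusted p = 0.361). Leaving out single samples moved the adjusted p between 0.201 and 0.678, and the fold change was −0.24 without atracurium replicate 2, −0.25 without water replicate 2 (unadjusted p then 0.0760) and −0.12 after removal of the length trend.

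The third was pfd-5 (WBGene00020112; chromosome III, 7198151 to 7198884), a subunit of the alpha class and the prefoldin gene with the highest level per length, 207 RPKM. It had 6.86, 6.65, 6.89 and 6.91 with atracurium, against 6.92, 7.26, 7.05 and 6.89 with water. Atracurium replicate 4 was above water replicate 4, so the groups overlapped. The fold change was −0.21 (SE 0.086, 95% interval −0.39 to −0.02, adjusted p = 0.401), and it was −0.13 without water replicate 2 (unadjusted p then 0.117) and 0.04 with the length trend removed.

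The remaining prefoldin subunits had unadjusted p-values above 0.05. For pfd-1 (WBGene00007443; chromosome IV, 11150113 to 11150930) the atracurium samples stood at 6.24, 5.37, 6.21 and 6.49 and the water samples at 6.44, 6.54, 6.42 and 6.39, a fold change of −0.37 that was −0.14 without atracurium replicate 2 and −0.01 with the length trend removed. For pfd-2 (WBGene00019220; chromosome II, 4326720 to 4328284) the fold change was −0.22, or −0.10 without atracurium replicate 2 and 0.05 with the trend removed. The alpha subunit pfd-3 (WBGene00006889; chromosome I, 12728137 to 12729898) had the longest exons of the family, 898 nt, the lowest level per length, 70.7 RPKM, and the smallest difference. It stood at 5.93, 5.61, 5.86 and 6.17 with atracurium, against 6.12, 5.98, 6.02 and 6.15 with water, a fold change of −0.18 (adjusted p = 0.496) that was −0.08 without atracurium replicate 2. The 6 subunits spanned a ratio of 2.93 in level per length, with pfd-3 last in all 8 samples. The alpha subunits pfd-3 and pfd-5 lay at −0.18 and −0.21, and the beta subunits pfd-1, pfd-2, pfd-4 and pfd-6 between −0.48 and −0.22, but the difference between the classes was not tested and their intervals overlap.

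**Figure D3:**
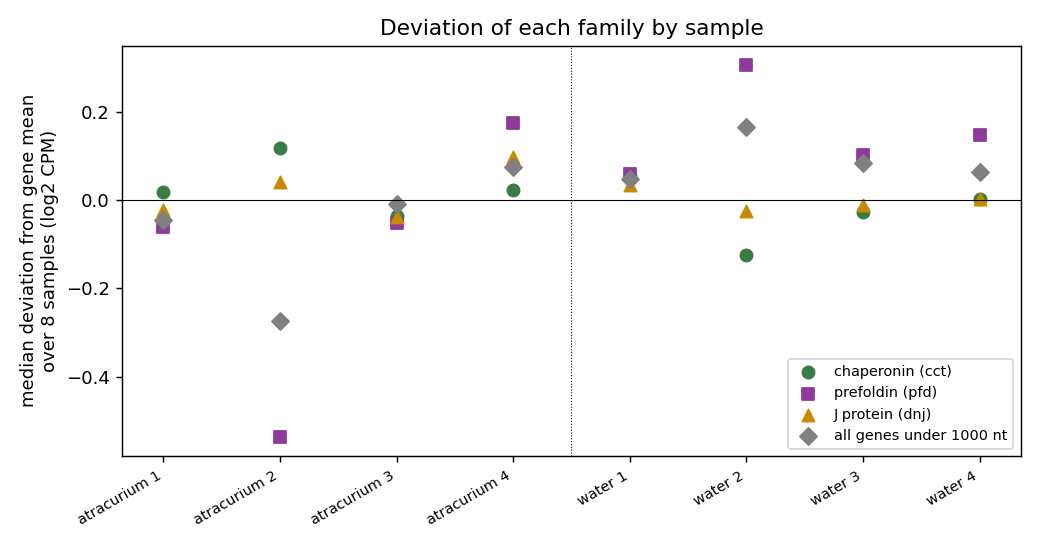
Median deviation of each family's genes from their mean over the 8 samples (log2 CPM, y axis) in each sample, with all genes under 1000 nt of exon. Prefoldin is lowest at −0.54 in atracurium replicate 2 and highest at 0.31 in water replicate 2, the samples where all short genes are also lowest and highest.

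By sample, the prefoldin genes varied together, and their extreme samples were those of other short genes. Their median deviation from each gene's mean was −0.06, −0.54, −0.05 and 0.17 in atracurium replicates 1 to 4, against 0.06, 0.31, 0.10 and 0.15 in the water replicates. Atracurium replicate 4 was thus above 3 of the 4 water samples. All genes under 1000 nt of exon (among those with a mean log2 CPM above 0) deviated by −0.04, −0.27, −0.01 and 0.07 with atracurium, against 0.05, 0.17, 0.08 and 0.06 with water, and so had the same lowest and the same highest sample. The chaperonin genes deviated by 0.02, 0.12, −0.04 and 0.02 with atracurium and by 0.06, −0.12, −0.03 and 0.00 with water, the reverse in both second replicates. The ratio of summed chaperonin to summed prefoldin level per length was 2.16, 3.28, 2.03 and 1.88 with atracurium, against 1.99, 1.43, 1.83 and 1.85 with water. The 2 ranges overlapped.

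The families also differed in length. The prefoldin genes had 464 to 898 nt of exon, the chaperonin genes 1854 to 2602 nt, and the J protein genes 426 to 3761 nt. Over all 17493 genes with a gene model the fold change increased with exonic length (Spearman correlation 0.423), as it did over the 43 members (0.683) and the 29 dnj genes alone (0.570). These are correlations across genes of the same 8 libraries and carry no p. Of 5922 genes under 1000 nt, 4492 were below 0 with a median of −0.18, while the 11571 longer genes had a median of 0.04. The prefoldin median of −0.29 therefore stands beside a median of −0.18 for short genes of every kind, and after the trend was removed in each sample it was −0.05, with only pfd-4 at an unadjusted p below 0.05 (0.0374). In bins of all genes with median lengths of 464 and 585 nt, nearer the prefoldin median of 567 nt, the median fold changes were −0.39 and −0.24. Sperm genes, which were lower in every atracurium sample, were short as well (median 384 nt), and their median fold change of −0.70 was −0.34 with the trend removed. The part of sperm content in the prefoldin values was not tested.

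**Figure D4:**
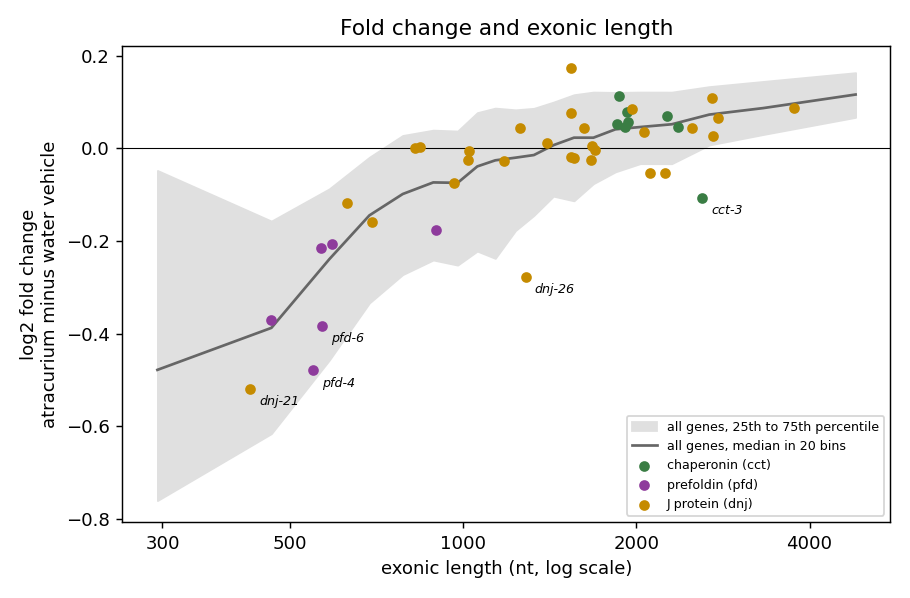
Log2 fold change (atracurium minus water vehicle) of the 43 genes against exonic length (nt, log scale), with the median and middle 50% of all genes in 20 bins of length. Prefoldin genes and dnj-21 lie where all short genes are low, and dnj-26 and cct-3 lie below the band of genes of their length.

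The J protein genes as a family showed no common direction. Of the 29, 15 were above 0 and 14 below, the median fold change was 0.00 and the range −0.52 (dnj-21) to 0.17 (dnj-24). None was higher at an unadjusted p below 0.05 and only dnj-26 was lower. The split itself depended on scaling, with 24 above and 5 below after shifting samples to a common median, and 13 above and 16 below after quantile normalization. Only 4 of the 29 differed by more than 0.15 in either direction.

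The cytosolic J proteins, which serve the main cytosolic Hsp70, were abundant and had small differences. These are dnj-12 and dnj-19, of the type that carries a zinc-binding domain, and dnj-13, of the type without it that in mammals works with Hsp70 in taking aggregates apart. Their levels per length were 288, 232 and 180 RPKM, and their fold changes lay between −0.02 and 0.01. For dnj-12 (WBGene00001030; chromosome I, 14756904 to 14758790), highest of all 29, log2 CPM was 8.89, 8.95, 8.87 and 8.94 with atracurium and 8.94, 8.92, 8.91 and 8.86 with water. The samples of both groups interleaved within 0.1 log2 units. Its fold change was 0.01 (95% interval −0.10 to 0.11, adjusted p = 0.975), with a sign that changed with scaling, and the intervals of the 3 genes together reached from 0.892-fold to 1.10-fold.

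Among the J proteins of the endoplasmic reticulum, none of the 4 differed detectably. These were dnj-7 (the P58IPK homolog, 0.09), dnj-20 (an ERdj3 homolog, −0.05), dnj-27 (an ERdj5 homolog with thioredoxin domains, 0.04) and dnj-29 (the Sec63 homolog of the protein translocon, 0.03). Their intervals ran between 0.890-fold and 1.19-fold. The ribosome-associated dnj-11, a homolog of yeast zuotin, had a fold change of 0.04, which was −0.01 without atracurium replicate 2, and its level of 196 RPKM was the third of the family.

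The 2 J proteins placed in mitochondria lay far apart. The matrix protein dnj-10, the homolog of Tid1, averaged 6.46 ± 0.06 with atracurium and 6.47 ± 0.04 with water (SD, n = 4 each). The fitted difference of dnj-21 (WBGene00001039; chromosome I, 5676827 to 5677646), a homolog of the J protein of the mitochondrial import motor, was the largest of all 43. It stood at 4.07, 2.71, 4.23 and 4.53 with atracurium, against 4.25, 4.68, 4.29 and 4.39 with water. Most of the difference came with 1 library, atracurium replicate 2, and atracurium replicate 4 lay above 3 of the 4 water samples. The fold change of −0.52 (SE 0.30, adjusted p = 0.497) was −0.13 without atracurium replicate 2 and −0.12 with the length trend removed. With 426 nt of exon, dnj-21 is the shortest of the 43.

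For the vesicle J proteins, dnj-25 codes for auxilin, which with Hsp70 strips clathrin from vesicles, and dnj-14 for the cysteine string protein of synaptic vesicles. dnj-25 (WBGene00001043; chromosome V, 20729948 to 20744346) had 6.54, 6.44, 6.35 and 6.28 with atracurium, against 6.31, 6.20, 6.31 and 6.37 with water. The first 2 atracurium replicates were above all water samples and the others among them, and the fold change was 0.11 (SE 0.068, adjusted p = 0.529). dnj-14 averaged 4.82 ± 0.05 with atracurium and 4.85 ± 0.06 with water (SD, n = 4 each), a fold change of −0.03 in the gene of this family tied to the presynaptic terminal.

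Of the 17 J proteins not placed in a compartment here, 8 were above 0 and 9 below, and dnj-26 and dnj-24 were at the ends. dnj-26 (WBGene00001044; chromosome IV, 12251093 to 12252679) had 5.30, 5.68, 5.42 and 5.37 with atracurium, against 5.63, 6.09, 5.66 and 5.49 with water. Only atracurium replicate 2, which was above 3 of the 4 water samples, made the groups overlap, and water replicate 2 was highest of all. The means were 5.44 ± 0.16 with atracurium and 5.72 ± 0.26 with water (SD, n = 4 each), a fold change of −0.28 (SE 0.12, unadjusted p = 0.0373, adjusted p = 0.413). It kept its difference with the length trend removed, at −0.26 (unadjusted p = 0.0216, adjusted p = 0.455), and without atracurium replicate 2, at −0.36 (adjusted p = 0.176). Of the prefoldin genes, pfd-4 also had an unadjusted p below 0.05 with the length trend removed (limma-trend, 0.0374), but at −0.20 in place of −0.48. Without water replicate 2 the fold change of dnj-26 was −0.15 (unadjusted p = 0.128).

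dnj-24 (WBGene00001042; chromosome III, 5415583 to 5424083) had the lowest level per length of the family, 5.24 RPKM, and the largest positive difference. Its log2 CPM was 3.02, 3.17, 3.262 and 2.97 with atracurium and 2.92, 2.84, 2.89 and 3.07 with water, so that all 4 atracurium samples were above 3 of the 4 water samples and the groups overlapped through water replicate 4. The fold change was 0.17 (SE 0.11, adjusted p = 0.533). A noncoding gene (W03A5.8) overlaps it on the same strand, as noncoding genes also do for dnj-20, dnj-23 and dnj-27. These overlaps are those of the annotation used here, not of the release used for counting. Whether reads were left uncounted was not tested.

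**Figure D5:**
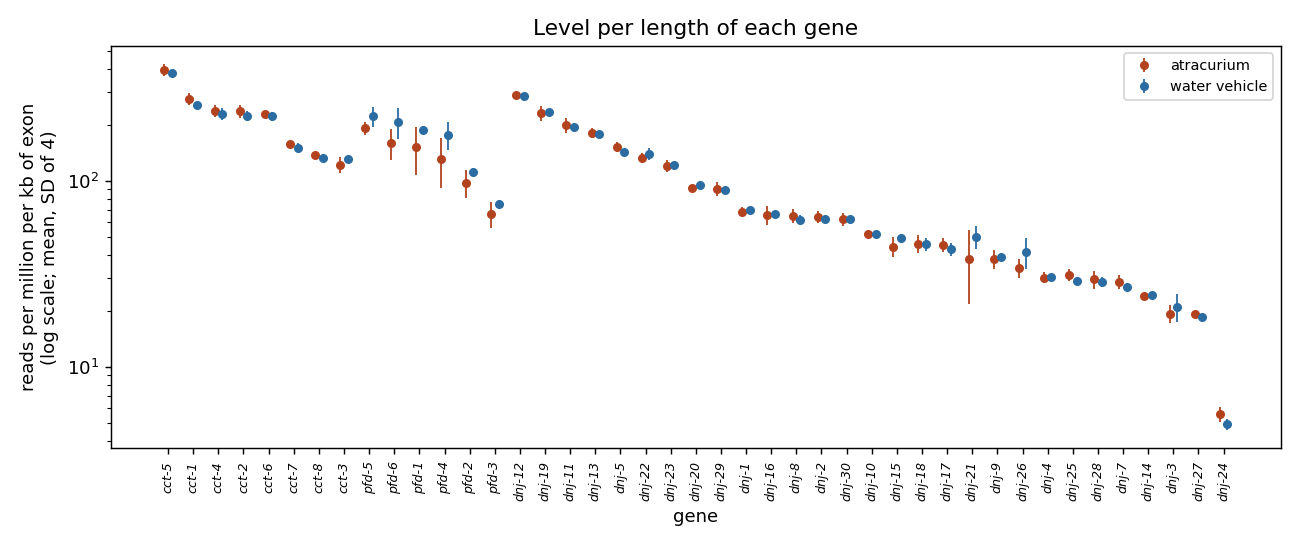
Level per length of each gene (RPKM, log scale) as the mean and SD of the 4 atracurium and the 4 water vehicle samples, ordered by level within each family. The J protein genes span 5.24 to 288 RPKM, the chaperonin genes 127 to 386 and the prefoldin genes 70.7 to 207.

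The J protein genes also covered by far the widest span of levels. Their RPKM ran between 5.24 (dnj-24) and 288 (dnj-12), a ratio of 54.9, with a median of 52.1, against medians of 228 for the chaperonin, 162 for prefoldin and 4.50 over all genes. After dnj-12 came dnj-19, dnj-11 and dnj-13, then dnj-5 (148), dnj-22 (137) and dnj-23 (121). At the low end, dnj-27 (18.9), dnj-3 (20.2) and dnj-14 (24.2) were several times above dnj-24. Among the 6 J protein genes under 1000 nt the median fold change was −0.10, and among the 23 longer ones 0.01.

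The wider pathway was described with lists of 59 names, of which 56 were in the table: Hsp70 chaperones and their exchange factors, Hsp90 and its co-chaperones, the mitochondrial chaperonin, tubulin folding cofactors, the actin and tubulin clients, and regulators of the heat shock response. Names were matched to deposited symbols only, so those not matched (daf-21, C01G10.8 and hsp-10) need not stand for undetected genes. None of the 56 passed an adjusted p of 0.05 with limma-trend, and 1 (hsp-70) did with limma-voom. The partners of the J proteins were mostly above 0. Of the 11 Hsp70 and exchange factor genes, 9 were higher at an unadjusted p below 0.05, where 4.91% of all genes were, none was lower (bag-1 and stc-1 lay below 0 at −0.05 and −0.11), and the median fold change was 0.18, or 0.13 with the length trend removed. Among all 11571 genes of 1000 nt or more, 806 were higher at that threshold. With the length trend removed hsp-6 (unadjusted p = 0.128) and hsp-110 (0.0606) no longer were. Without water replicate 2, hsp-1, hsp-6, hsp-110 and F44E5.4 no longer were (unadjusted p 0.0591 to 0.115). The body wall muscle genes, whose median fold change was 0.24 (0.12 with the length trend removed), lay above 0 too, and their part in these values and in those of the tubulins was not tested.

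The main cytosolic Hsp70, hsp-1, had 11.45, 11.46, 11.29 and 11.41 log2 CPM with atracurium, against 11.36, 11.16, 11.23 and 11.15 with water, a fold change of 0.18 (SE 0.069, adjusted p = 0.373), and only atracurium replicate 3 fell within the water range. hsp-3, an Hsp70 of the endoplasmic reticulum, had 9.36, 9.51, 9.33 and 9.33 with atracurium, against 9.18, 9.08, 9.23 and 9.26 with water, with no overlap and a fold change of 0.20 (adjusted p = 0.306). Both Hsp70 genes thus had small differences with most or all atracurium samples on 1 side. The stress-inducible hsp-70 had 2.27, 2.43, 2.63 and 2.13 with atracurium and 1.30, 1.24, −0.07 and 1.04 with water. Its fold change was 1.49 (SE 0.27), and its adjusted p was 0.0602 with limma-trend and 0.0442 with limma-voom, with 0.0161 to 0.211 when single samples were left out. Only 25 to 191 reads a sample came from hsp-70, so its counting error was large. unc-23, a BAG-domain exchange factor needed for muscle attachment, had 4.69, 5.01, 4.72 and 4.77 with atracurium and 4.48, 4.35, 4.28 and 4.38 with water, a fold change of 0.42 (SE 0.087, adjusted p = 0.117). In both genes every atracurium sample was above every water sample. F44E5.5, an inducible Hsp70, stood at 0.30, 0.81, 1.39 and 0.91 with atracurium and at −0.08, −0.47, −0.59 and 0.03 with water, with no overlap. It had a fold change of 1.13 (SE 0.27, adjusted p = 0.213) and its near-identical neighbor F44E5.4 one of 1.34, and reads shared between these copies make both values uncertain. Counts were low too, with 17 to 80 reads a sample for F44E5.5 and 6 to 131 for F44E5.4.

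The clients of the chaperonin ran between −0.55 (tba-6) and 0.51 (tbb-4). Of 21 actin and tubulin genes, 17 were above 0 and 4 below with a median fold change of 0.11, and 6, all tubulins (ben-1, mec-7, mec-12, tba-1, tbb-2 and tbb-4), were higher at an unadjusted p below 0.05, against 4.91% of all genes. With the length trend removed ben-1 (unadjusted p = 0.142) and mec-7 (0.0555) no longer were. Without water replicate 2, ben-1, mec-7, tba-1 and tbb-2 no longer were (limma-trend, unadjusted p 0.0526 to 0.103). Among all 11571 genes of 1000 nt or more, 806 were higher at an unadjusted p below 0.05. The 7 tubulin cofactors had 3 above and 4 below 0 and none with an unadjusted p below 0.05. Of the 10 Hsp90 genes matched, 6 were above 0, and 1, enpl-1, was higher at an unadjusted p below 0.05 (fold change 0.20). The mitochondrial chaperonin hsp-60 had a fold change of 0.17 (unadjusted p = 0.0216) and its short co-chaperonin Y22D7AL.10 one of −0.38 (unadjusted p = 0.0285), which was −0.18 without atracurium replicate 2 and −0.11 with the length trend removed. Among the regulators, the heat shock factor hsf-1 had a fold change of 0.07, daf-16 one of 0.10 and hsb-1, which binds and holds back the heat shock factor, one of −0.29 (−0.12 without atracurium replicate 2), none with an unadjusted p below 0.05.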

How the data were processed

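Polyadenylated RNA of 4 atracurium and 4 water vehicle samples was sequenced with a strand-specific kit. Per the submitters' notes and the methods, the authors checked reads with FastQC, trimmed them with Trimmomatic 0.32, aligned them with HISAT2 2.1.0 to WBcel235 (Ensembl release 91), counted them per gene and strand with HTSeq 0.11.0, dropped genes unless 3 or more samples had over 2 counts, and used edgeR 3.26.8 and limma 3.40.6. The deposited values are log2 CPM made by the authors, with a prior count that sets a gene without reads at −4.15. Whole reads were recovered from them, with 100% of values within 0.1 of a whole number. Counts of fragmented polyadenylated RNA per gene can carry a trend with gene length.

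All 17521 genes were tested with limma 3.58.1 in R 4.3.3 (limma-trend, 2 groups, two-sided, Benjamini-Hochberg adjustment over all genes). Gene coordinates and exonic lengths were taken from an Ensembl annotation of WBcel235. Members and gene lists were chosen with earlier results of these data known. Members were given sample by sample where the unadjusted p was below 0.05, where groups did not overlap, at the highest and lowest level per length, and for the 2 largest fold changes each way in each family; of other lists, genes with an unadjusted p below 0.01 and hsp-1. Alternatives were limma-voom on recovered reads, no mean-variance trend, robust moderation, sample weights (statmod 1.5.0), a common median, quantile normalization, a filter of log2 CPM above 0 in at least 4 samples, a prior count of 0.5, removal of each sample's lowess trend (span 0.3) on log2 exonic length, the replicate number as a block, single samples left out, and atracurium replicates 2 and 4 left out together. The test was tested on simulated data. Replicates differed by more than counting noise (chi-square per degree of freedom 6.00 to 74.6), so none was a repeated library. Protein features of these genes were not used here.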

Additional observations from a re-analysis of the deposited data

Results flagged for a closer look

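In 86 groups of 4 values, 1 for each gene and treatment, 2 held a sample far from the others by Dixon's test, where chance gives about 1 in 20. The log2 CPM of pfd-6 was 7.25 in water vehicle replicate 2, against 6.72 to 6.76 in the other water samples, and without that sample the fold change of pfd-6 was −0.25 in place of −0.38. The log2 CPM of dnj-8 was 7.30 in water vehicle replicate 4, against 7.44 to 7.47 in the others.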

How the results depend on the processing

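No member passed an adjusted p of 0.05 under any of the 19 alternatives. The 4 members at an unadjusted p below 0.05 (11.5% of all genes) became 0 without the mean-variance trend (9.68% of all genes), 2 with robust moderation (11.1%), 7 with sample weights (17.4%), 2 with a common median (12.6%), 10 without atracurium replicates 2 and 4 (14.4%), and 0 to 11 with single samples left out (0 without water replicate 2, 7.47%, and 11 without atracurium replicate 4, 17.1%). Members whose groups did not overlap numbered 0 with a common median or the length trend removed, 2 with quantile normalization, 13 without atracurium replicates 2 and 4 (24.2% of all genes then), and 1 to 10 with single samples left out (10 without atracurium replicate 4, 16.2% of all genes then). All 6 prefoldin genes were among these 13 and among these 10. They were also among the 11 members at an unadjusted p below 0.05 without atracurium replicate 4. The median fold change of prefoldin was −0.052 with the length trend removed, and that of the J proteins 0.065 with a common median. Over all genes, the 31 calls became 16 without the trend, 139 with sample weights, 134 without atracurium replicates 2 and 4, and 17 to 78 with single samples left out. Pathway genes passing were 1 with limma-voom, robust moderation, a common median, quantile normalization, the length trend removed or without atracurium replicates 2 and 4, 2 with sample weights, and 0 to 1 with single samples left out. The fold change of dnj-12 changed sign with sample weights (−0.013), quantile normalization (−0.020), the length trend removed (−0.019), without atracurium replicates 2 and 4 (−0.027) and with single samples left out (−0.0093 to 0.019), and that of pfd-5 with the length trend removed (0.037). The causes were not tested. Samples sharing a replicate number did not deviate together (correlations −0.100, −0.128, −0.003 and 0.111). With 4 samples a group, such correlations cannot settle whether cultures were paired. With the replicate number as a block, 20 of all genes and 0 members passed the adjusted threshold, and 6 members (10.96% of all genes) had an unadjusted p below 0.05. The 13 members named by rule kept their direction otherwise, and none passed the adjusted threshold.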

Other observations

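The nearest pair of these genes in the genome is dnj-2 and pfd-4, on chromosome IV, which point away from each other with 1226 nt between them. Their fold changes were 0.04 for dnj-2 (exonic length 1256 nt) and −0.48 for pfd-4 (548 nt). For dnj-2 the samples stood at 6.19, 6.44, 6.28 and 6.40 log2 CPM with atracurium, against 6.34, 6.31, 6.24 and 6.25 with water, so the groups overlapped and the second atracurium replicate was the highest sample for dnj-2 and the lowest for pfd-4. Members lay on all 6 chromosomes, 9 on I, 11 on II, 8 on III, 8 on IV, 5 on V and 2 on X.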
